A study of Homo sapiens with 12 samples.

Results

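Short retained introns are introns of up to 200 bases that a mature poly(A) RNA can either keep or lose. They were taken from the MISO events of the retained-intron type that had a value in all 7 columns, which gave 345 events out of 1152 retained introns and 10358 splicing events of all types. The cells were HEK293T, an established human embryonic kidney line, with stable lentiviral hairpins against PRMT1, PRMT3, PRMT4, PRMT5, PRMT6 or PRMT7, or with a scramble hairpin. The labels list 12 poly(A) RNA-seq libraries: 2 hairpins for each target except PRMT6, which has 1, and 1 scramble library. All lines, scramble included, carry an integrated hairpin vector. The deposited table holds 1 column per target and 1 for scramble, and the sources used here do not say how hairpins were combined. Each value is thus single, without SD, replicates or a test, and read depth is unknown. Retention is given as percent spliced in (PSI), here the share of transcripts that keep the intron, from 0 to 1. PSI is a ratio, so more of the form with the intron and less of the spliced form cannot be told apart. An intron is called differing where PSI in a knockdown and in scramble were at least 0.1 apart, a rule of size alone. Transcript levels were not analysed here, so neither the depth of each knockdown nor markers of the cell line are given.

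Intron retention leaves an intron in an otherwise spliced RNA. A retained intron between coding exons often brings a premature stop codon, and such RNAs are either held in the nucleus or decayed in the cytoplasm by nonsense-mediated decay. Short introns are mostly rich in G and C and are recognised as a unit across the intron, with both splice sites paired directly. Protein arginine methyltransferases (PRMTs) place methyl groups on arginines of RNA-binding proteins. PRMT5 makes symmetric dimethylarginine on Sm proteins of the spliceosome, PRMT1 and PRMT6 make asymmetric dimethylarginine, PRMT4 (CARM1) methylates splicing factors as well as histones, PRMT3 acts on a ribosomal protein, and PRMT7 makes monomethylarginine.

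The 345 events cover 317 different introns, since 26 introns were measured by 2 or more events that differ in their flanking exons. Lengths ran from 32 to 200 bases with a median of 114, and 164 events lay on the plus strand and 181 on the minus strand. Just inside the length bound stood SRSF1 at 200 bases and DYNLL1 and POMGNT1 at 199. Just outside stood NDST2 and NSUN5P1 at 202 bases and HNRNPH1 at 206. A further 177 short introns were listed without a value in every column and were not used.

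The sequences of the introns with the largest or most uneven values come first, because their splice sites and stop codons are referred to beside the values. They were read from GENCODE 29 transcripts on GRCh38 that contain the intron as exon sequence, and the intron was found by gene, strand, exact length and exact length of at least 1 flanking exon. Sequences run 5′ to 3′ on the strand of the gene. Capitals mark the first 6 bases, the last 3 bases and, where a single reading frame enters the intron, the first in-frame stop codon. SRSF1 (chr17:58005601-58005800, minus strand) is shown by its first and last 20 bases only, HMGN2 lies at chr1:26473528-26473702 (plus), MAT2A at chr2:85542374-85542564 (plus), DGCR8 at chr22:20089812-20089975 (plus), SNHG11 at chr20:38450448-38450532 (plus), SPSB3 at chr16:1777873-1777945 (minus) and the YDJC intron of 120 bases at chr22:21629188-21629307 (minus).
SRSF1 first 20 bases: GTAGGTtatacacgtattct
SRSF1 last 20 bases: aagttctgtctatccaaTAG
HMGN2: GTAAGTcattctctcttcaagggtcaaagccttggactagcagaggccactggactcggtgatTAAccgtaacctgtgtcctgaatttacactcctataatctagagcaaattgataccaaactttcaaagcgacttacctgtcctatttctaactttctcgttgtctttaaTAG
MAT2A: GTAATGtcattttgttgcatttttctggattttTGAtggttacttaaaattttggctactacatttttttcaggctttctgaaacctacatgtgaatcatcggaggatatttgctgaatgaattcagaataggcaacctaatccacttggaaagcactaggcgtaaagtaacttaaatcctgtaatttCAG
DGCR8: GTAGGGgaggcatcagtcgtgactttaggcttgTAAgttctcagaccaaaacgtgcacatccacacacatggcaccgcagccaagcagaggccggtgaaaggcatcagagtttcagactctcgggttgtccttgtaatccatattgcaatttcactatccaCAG
SNHG11: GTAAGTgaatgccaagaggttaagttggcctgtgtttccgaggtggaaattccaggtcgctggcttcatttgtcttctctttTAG
SPSB3: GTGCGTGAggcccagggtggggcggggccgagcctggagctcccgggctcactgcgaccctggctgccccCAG
YDJC: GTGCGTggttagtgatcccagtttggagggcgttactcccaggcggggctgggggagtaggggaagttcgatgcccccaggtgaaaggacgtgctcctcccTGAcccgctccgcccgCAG

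All 7 begin with GT and end with AG. HMGN2 and SNHG11 begin with GTAAGT, a full match to the consensus that pairs with U1 snRNA, and the others depart from it. The stop codon begins at base 64 of the HMGN2 intron, at base 34 in MAT2A and DGCR8, at base 6 in SPSB3 and at base 102 in YDJC. GC content was 36.0% in SRSF1, 34.0% in MAT2A, 41.1% in HMGN2 and 50.0% in DGCR8, against 65.8% in YDJC and 78.1% in SPSB3.

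Short introns were either mostly removed or mostly kept. In scramble 122 of the 345 had a PSI below 0.2, 143 above 0.8 and 80 in between. Median PSI was 0.53 (PRMT1), 0.48 (PRMT3), 0.45 (PRMT4), 0.41 (PRMT5), 0.48 (PRMT6) and 0.48 (PRMT7), against 0.51 in scramble. The mean was between 0.509 and 0.515 in the knockdowns, against 0.521 in scramble. The median of the differences was 0 in all 6 knockdowns. Of the 345 events, 185 stayed within 0.05 of scramble in every knockdown, and 97 (28.1%) differed in at least 1, against 32.5% of the longer introns and 21.5% of all events.

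**Figure D1:**
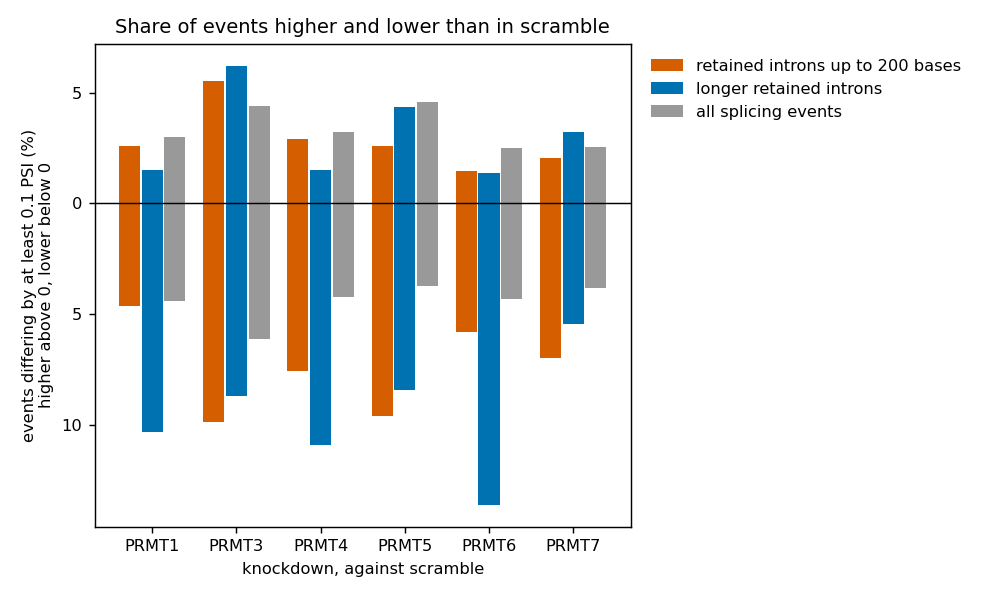
Percent of events with a PSI at least 0.1 higher (bars above 0) or lower (bars below 0) than in scramble, for the 6 knockdowns, in 345 short retained introns, 807 longer retained introns and 10358 events of all types. Lower bars exceed higher bars for short introns in every knockdown, and short introns have the tallest lower bar in PRMT3, PRMT5 and PRMT7.

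PRMT3 and PRMT5 knockdown had the most differing short introns. In PRMT3 knockdown 53 of 345 differed (15.4%, against 10.5% of all events), 19 higher (background 4.37%) and 34 lower (6.12%). PRMT5 knockdown had 42 (12.2%, against 8.27% of all events), 9 higher (background 4.57%) and 33 lower (3.71%). PRMT4 knockdown followed with 36 (10.4%, against 7.47% of all events), 10 higher (background 3.23%) and 26 lower (4.24%). PRMT7 knockdown had 31 (8.99%, against 6.34% of all events), 7 higher (background 2.54%) and 24 lower (3.8%). PRMT1 and PRMT6 knockdown stood near the background, with 25 each (7.25%, against 7.4% of all events for PRMT1 and 6.84% for PRMT6), 9 higher (2.99%) and 16 lower (4.41%) in PRMT1 and 5 higher (2.5%) and 20 lower (4.33%) in PRMT6. At a difference of at least 0.2, 13 short introns passed in PRMT3 knockdown (against 2.51% of all events), 6 in PRMT5 (1.3%), 6 in PRMT4 (1.42%), 4 in PRMT7 (0.936%), 3 in PRMT1 (1.07%) and 2 in PRMT6 (0.869%). Lower retention made up 64.0% (PRMT1), 64.2% (PRMT3), 72.2% (PRMT4), 78.6% (PRMT5), 80.0% (PRMT6) and 77.4% (PRMT7) of the differing short introns. Among all differing events lower PSI made up 59.6% (PRMT1), 58.3% (PRMT3), 56.7% (PRMT4), 63.4% (PRMT6) and 394 of 657 (PRMT7). For PRMT5 the balance of all 10358 events was the other way, with lower PSI in 44.8% of the differing ones. Most of those events are of other types, for which a lower PSI does not mean lower intron retention. Among longer introns the share ran from 58.3% (PRMT3) to 90.9% (PRMT6), with 66.0% in PRMT5 knockdown. It was above that of short introns in PRMT1, PRMT4 and PRMT6 knockdown. Lower retention in PRMT5 knockdown took 9.57% of short introns, 8.43% of longer introns and 3.71% of all events. All 6 comparisons share the scramble column, so a scramble value that is high for an intron lowers all 6 differences at once. With the mean of the other 5 knockdowns in place of scramble, lower retention made up a smaller share of the differing short introns. It was 46.7% (PRMT1), 51.2% (PRMT3), 64.3% (PRMT4), 65.2% (PRMT5), 63.2% (PRMT6) and 6 of 10 (PRMT7). On that scale the 6 differences of an intron cancel out by construction, so a shift shared by all knockdowns is removed. A shift of scramble and a shared shift of the knockdowns cannot be told apart in this way.

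Longer introns followed another order among the knockdowns. The share differing was 7.25% of short against 15.0% of the 807 longer introns in PRMT6 knockdown, and 7.25% against 11.8% in PRMT1 knockdown. It was closer in PRMT5 (12.2% against 12.8%), PRMT3 (15.4% against 14.9%), PRMT7 (8.99% against 8.67%) and PRMT4 knockdown (10.4% against 12.4%). These gaps have no test. The gap in PRMT6 knockdown lay in lower retention, at 5.8% of short against 13.6% of longer introns. With the mean of the 5 remaining knockdowns in place of scramble, PRMT3 had the most differing short introns at 43 (against 7.01% of all events). The counts on that scale were 15 for PRMT1 (3.68% of all events), 14 for PRMT4 (3.86%), 23 for PRMT5 (5.99%), 19 for PRMT6 (4.49%) and 10 for PRMT7 (3.01%).

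Introns of intermediate retention carried most of the differences. Among the 80 with a scramble PSI of 0.2 to 0.8, 39 differed in PRMT3 (48.8%) and 31 in PRMT5 (38.8%), against 41.8% and 33.5% of the 1658 events of all types in that range. The counts were 19 (PRMT1), 27 (PRMT4), 19 (PRMT6) and 18 (PRMT7). PRMT4 also lay above all events in that range (33.8% against 28.6%). PRMT6 (23.8% against 27.5%) and PRMT7 (22.5% against 24.8%) lay below them, as did PRMT1 (23.8%, against 465 of 1658 events). The higher share of short introns in PRMT7 knockdown was thus not seen in this range. Of the 212 longer introns in the same range, 81 differed in PRMT3 and 85 (40.1%) in PRMT6 knockdown. Among the 143 short introns above 0.8 in scramble, between 2 and 9 differed per knockdown, and all of these were lower. That direction is partly set by the scale, which leaves no room for a rise of 0.1 in introns above 0.9.

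**Figure D2:**
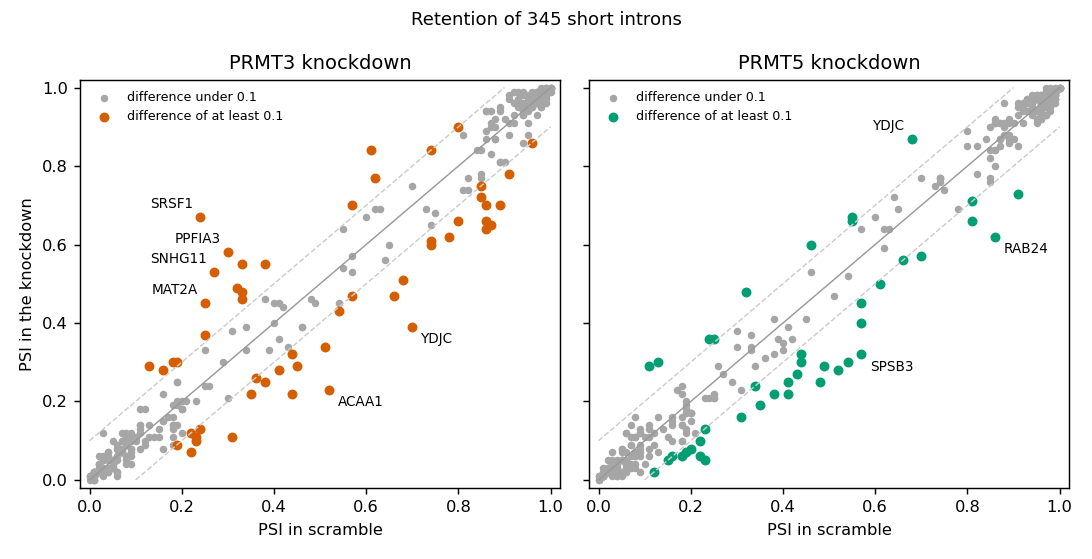
PSI of each of the 345 short retained introns in PRMT3 knockdown (left) and PRMT5 knockdown (right) on the y axis, against PSI in scramble on the x axis; dashed lines mark a difference of 0.1. SRSF1, PPFIA3, SNHG11 and MAT2A lie far above the line in PRMT3 knockdown, and most coloured points in PRMT5 knockdown lie below it.

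The largest higher values in PRMT3 knockdown were those of SRSF1, PPFIA3, SNHG11 and HMGN2. SRSF1 encodes an SR protein, an activator of splicing that controls its own level through alternative forms of its mRNA. Its intron (GRCh37 chromosome 17, 56082962 to 56083161, minus strand) had a PSI of 0.23 (PRMT1 knockdown), 0.67 (PRMT3), 0.22 (PRMT4), 0.36 (PRMT5), 0.15 (PRMT6) and 0.33 (PRMT7), against 0.24 in scramble. All coordinates given without a chr prefix are GRCh37. PRMT3 knockdown stands alone at the top, and PRMT5 is the next highest. The HNRNPH1 intron of 206 bases, just past the length bound, had 0.21, 0.54, 0.32, 0.26, 0.20 and 0.34 in PRMT1, PRMT3, PRMT4, PRMT5, PRMT6 and PRMT7 knockdown, against 0.39 in scramble.

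MAT2A, chosen after its values were seen, makes S-adenosylmethionine, the methyl donor that every PRMT uses. Its mRNA is known for a regulated retained intron near the 3′ end, and whether the intron measured here is that one was not checked. The intron here (chromosome 2, 85769497 to 85769687) stood at 0.22 (PRMT1), 0.45 (PRMT3), 0.24 (PRMT4), 0.36 (PRMT5), 0.17 (PRMT6) and 0.32 (PRMT7), against 0.25 in scramble. By MISO, PRMT3 is highest, PRMT5 next and PRMT6 lowest, as for SRSF1. In the authors' deposited table of rMATS differences, read as knockdown minus scramble, the MAT2A intron stood at -0.058 (PRMT1), 0.146 (PRMT3), 0.065 (PRMT4), 0.058 (PRMT5), -0.074 (PRMT6) and 0.060 (PRMT7). There PRMT3 is again highest and PRMT6 lowest, but PRMT4, PRMT5 and PRMT7 lie within 0.01 of each other. SRSF1 had no matching intron there.

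SNHG11, a noncoding RNA that hosts snoRNAs, and PPFIA3, a liprin scaffold of synapses, were also highest in PRMT3 knockdown by MISO. The SNHG11 intron (chromosome 20, 37079091 to 37079175) was at 0.25 (PRMT1), 0.53 (PRMT3), 0.17 (PRMT4), 0.27 (PRMT5), 0.18 (PRMT6) and 0.29 (PRMT7), against 0.27 in scramble. A second event over the same bases gave 0.55 in PRMT3 knockdown and 0.33 in scramble, and the authors' deposited table gave 0.114 in PRMT3 knockdown. For PPFIA3 (84 bases) the values were 0.38, 0.58, 0.30, 0.34, 0.42 and 0.36 in PRMT1, PRMT3, PRMT4, PRMT5, PRMT6 and PRMT7 knockdown, against 0.30 in scramble. In the authors' deposited table PPFIA3 stood at 0.078 for PRMT1, 0.078 for PRMT3 and 0.082 for PRMT7 and at 0.012 to 0.035 for the others, so PRMT3 did not stand alone there. MAPK7, the kinase ERK5, stood at 0.37 in PRMT3 knockdown against 0.25 in scramble, with 0.112 in the authors' deposited table.

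The HMGN2 intron split the knockdowns. HMGN2 is a nucleosome-binding protein, and its intron (chromosome 1, 26800019 to 26800193) stood at 0.79 (PRMT1), 0.84 (PRMT3), 0.76 (PRMT4), 0.50 (PRMT5), 0.77 (PRMT6) and 0.69 (PRMT7), against 0.61 in scramble. PRMT5 was the only column below scramble. The authors' deposited table did not show this spread: it gave between -0.014 and -0.005 for HMGN2 in all 6 knockdowns.

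DGCR8, the RNA-binding partner of DROSHA in microRNA processing, was highest in PRMT7 knockdown by MISO. Its intron (chromosome 22, 20077335 to 20077498) was at 0.32 (PRMT1), 0.49 (PRMT3), 0.39 (PRMT4), 0.48 (PRMT5), 0.26 (PRMT6) and 0.56 (PRMT7), against 0.32 in scramble. The authors' deposited table gave 0.096 for PRMT3, 0.076 for PRMT5 and 0.040 for PRMT7, the same direction and a smaller size. PRMT4 stood at 0.091 there, and PRMT7 was the lowest of these values rather than the highest. CCDC142 (113 bases) was the largest higher value in PRMT1 knockdown, at 0.56 (PRMT1), 0.46 (PRMT3), 0.38 (PRMT4), 0.37 (PRMT5), 0.38 (PRMT6) and 0.35 (PRMT7), against 0.33 in scramble.

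**Figure D3:**
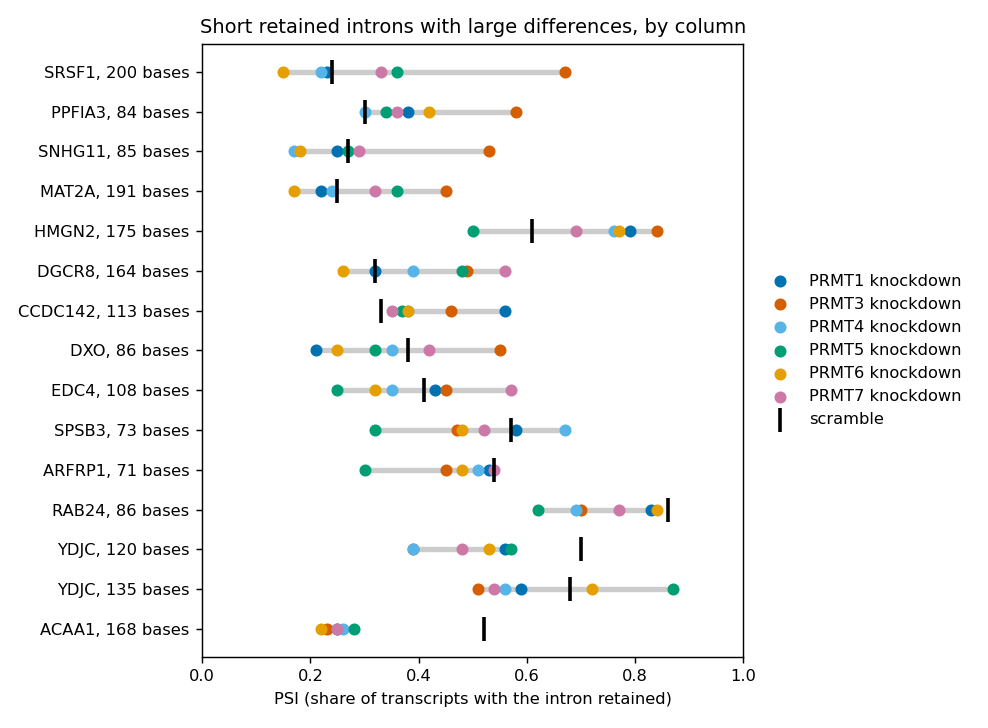
PSI of 15 short retained introns by column, with 1 dot per knockdown, a black bar for scramble and a grey line over the range of the knockdowns. SRSF1, SNHG11 and PPFIA3 have a single dot far right (PRMT3), SPSB3, ARFRP1 and RAB24 have PRMT5 at the left end, and the 6 dots of ACAA1 sit together between 0.22 and 0.28 with scramble apart at 0.52; the PRMT3 and PRMT4 dots of the YDJC intron of 120 bases coincide at 0.39.

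The largest lower values in PRMT5 knockdown were those of SPSB3, ACAA1, ARFRP1 and RAB24. SPSB3 is a substrate adaptor of a ubiquitin ligase. Its intron of 73 bases (chromosome 16, 1827874 to 1827946) was at 0.58 (PRMT1), 0.47 (PRMT3), 0.67 (PRMT4), 0.32 (PRMT5), 0.48 (PRMT6) and 0.52 (PRMT7), against 0.57 in scramble, while rMATS in the authors' deposited table put it at 0.039 for PRMT5. ARFRP1, a Golgi GTPase, had 0.53, 0.45, 0.51, 0.30, 0.48 and 0.54 in PRMT1, PRMT3, PRMT4, PRMT5, PRMT6 and PRMT7 knockdown, against 0.54 in scramble. PRMT5 is the lowest column for both by MISO, and ARFRP1 had no matching intron in the authors' deposited table.

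Of the 32 short introns on the list of vesicle traffic and cytoskeleton genes, 6 were lower and none higher in PRMT5 knockdown. In that knockdown 3.71% of all events and 9.57% of all 345 short introns were lower. The median difference of the 32 was -0.005, against 0 over all events. The list had 2 higher and none lower in PRMT1, 2 and 2 in PRMT3, none and 1 in PRMT4, 1 and none in PRMT6 and 2 and 1 in PRMT7 knockdown, where 2.5% to 4.37% of all events were higher and 3.8% to 6.12% lower. RAB24, a GTPase of the autophagy pathway, has 2 short introns. Its 5′ UTR intron (86 bases) stood at 0.83 (PRMT1), 0.70 (PRMT3), 0.69 (PRMT4), 0.62 (PRMT5), 0.84 (PRMT6) and 0.77 (PRMT7), against 0.86 in scramble, and its coding intron (140 bases) at 0.22, 0.25, 0.22, 0.07, 0.19 and 0.23 against 0.19. PRMT5 is the lowest column for both introns by MISO, and they gave 2 of the 6 lower calls of the list in PRMT5 knockdown. The authors' deposited table put the RAB24 intron of 140 bases between -0.021 and -0.005 in all 6 knockdowns, with PRMT6 lowest, and the other intron was not matched there. TUBGCP6, a subunit of the gamma-tubulin ring complex, had 0.29 in its intron of 71 bases in PRMT5 knockdown, 0.43 to 0.56 in the other 5 knockdowns and 0.49 in scramble. The authors' deposited table gave -0.082 (PRMT5), -0.083 (PRMT4) and -0.088 (PRMT7) for that TUBGCP6 intron, so PRMT5 did not stand apart there. VPS28, a subunit of the ESCRT-I sorting complex, had 0.22 in PRMT5 knockdown against 0.38 in scramble, with -0.104 in the authors' deposited table, and was also low in PRMT3 knockdown at 0.25.

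A few short introns were higher in PRMT5 knockdown. PTPMT1 is a mitochondrial phosphatase that takes part in cardiolipin synthesis. Its intron of 109 bases had 0.24 (PRMT1), 0.13 (PRMT3), 0.25 (PRMT4), 0.29 (PRMT5), 0.25 (PRMT6) and 0.20 (PRMT7), against 0.11 in scramble. Scramble is the lowest column, so the difference is not one of PRMT5 alone. NOP16, a nucleolar protein, had 0.30 in PRMT5 and 0.29 in PRMT3 knockdown, 0.09 to 0.14 in the other 4 and 0.13 in scramble. For NOP16 the authors' deposited table gave 0.027 in PRMT5 and 0.089 in PRMT3 knockdown, and -0.015 to 0.007 in the other 4.

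Scramble itself stood apart for ACAA1 and for an intron of ZNF598. ACAA1 encodes a thiolase of peroxisomal fatty acid oxidation, and its intron of 168 bases had 0.25, 0.23, 0.26, 0.28, 0.22 and 0.25 in PRMT1, PRMT3, PRMT4, PRMT5, PRMT6 and PRMT7 knockdown, against 0.52 in scramble. The 6 knockdowns lie within 0.06 of each other, and the authors' deposited table gave between -0.087 and -0.004. ZNF598, a ubiquitin ligase that senses collided ribosomes, had 0.10, 0.10, 0.16, 0.05, 0.06 and 0.09 in its intron of 134 bases (chromosome 16, 2050258 to 2050391), against 0.23 in scramble. The authors' deposited table gave -0.121 for PRMT5 and -0.133 for PRMT6 knockdown. An overlapping ZNF598 intron of 152 bases that shares the 3′ splice site had 0.06 to 0.17 in the knockdowns and 0.22 in scramble, and another intron of the gene, of 97 bases, 0.06 to 0.10 and 0.07.

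YDJC has 3 short introns, and 2 of them share a 3′ splice site. The intron of 120 bases (chromosome 22, 21983477 to 21983596) had 0.56 (PRMT1), 0.39 (PRMT3), 0.39 (PRMT4), 0.57 (PRMT5), 0.53 (PRMT6) and 0.48 (PRMT7), against 0.70 in scramble. Scramble is the highest column, and the authors' deposited table gave -0.349 in PRMT3 and -0.386 in PRMT4 knockdown. The intron of 135 bases had 0.59, 0.51, 0.56, 0.87, 0.72 and 0.54, against 0.68 in scramble, with PRMT5 highest. In the authors' deposited table that intron stood at -0.112 in PRMT5 knockdown, the opposite direction. The intron of 194 bases, which shares its 3′ splice site with the one of 135, had 0.96, 0.86, 0.94, 0.93, 0.96 and 0.84, against 0.96. For it the authors' deposited table gave lower values in all 6 knockdowns. They were -0.144 (PRMT1), -0.245 (PRMT3), -0.284 (PRMT4), -0.167 (PRMT5), -0.088 (PRMT6) and -0.142 (PRMT7).

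EDC4, DXO and PABPC1 act on mRNA ends, and EDC4 and PABPC1 stand on the list of 3′ end processing, export and decay genes, while DXO does not. EDC4 is a scaffold of the decapping complex. Its intron of 108 bases (chromosome 16, 67915749 to 67915856) had 0.43 (PRMT1), 0.45 (PRMT3), 0.35 (PRMT4), 0.25 (PRMT5), 0.32 (PRMT6) and 0.57 (PRMT7), against 0.41 in scramble. By MISO, PRMT5 and PRMT7 stand at opposite ends; the authors' deposited table gave -0.073 for PRMT5 and 0.017 for PRMT7. DXO, a decapping exonuclease, had 0.21, 0.55, 0.35, 0.32, 0.25 and 0.42 in its intron of 86 bases, against 0.38 in scramble, with PRMT1 lowest and PRMT3 highest. For DXO the authors' deposited table gave -0.061 (PRMT1), 0.088 (PRMT3) and -0.074 (PRMT6). PABPC1, the poly(A)-binding protein, had 0.06 in PRMT5 knockdown, 0.12 to 0.16 in the other 5 and 0.18 in scramble. For that PABPC1 intron (198 bases) the authors' deposited table gave -0.035 in PRMT5 knockdown and -0.013 to -0.005 in the other 5. On the list of 3′ end processing, export and decay genes, 6 short introns were measured. In PRMT3 knockdown 1 of the 6 was higher (background 4.37%), in PRMT5 knockdown 1 was higher (4.57%) and 2 lower (3.71%), in PRMT7 knockdown 2 were higher (2.54%), and none differed in the other 3. DGCR8 also stands on this list, although it acts in microRNA processing. Its intron gave the higher call in PRMT3 and in PRMT5 knockdown and 1 of the 2 in PRMT7.

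The other lists hold 3 to 19 short introns each, so that 1 intron is 5% of a list or more. Their counts are set beside the share of all events that was higher (2.5% to 4.57% by knockdown) or lower (3.71% to 6.12%), and no list was tested. Of 19 short introns in ribosomal protein and translation genes, lower values were found for 2 (PRMT1), 1 (PRMT3), 1 (PRMT4) and 2 (PRMT5), and none was higher. RPS9, a protein of the small ribosomal subunit, had 0.72 in PRMT3 knockdown, 0.79 to 0.84 in the other 5 and 0.85 in scramble. In the authors' deposited table RPS9 stood at -0.195 for PRMT3 and was lowest for PRMT4, at -0.245. None of the 5 introns in hnRNP and other splicing regulator genes differed in any knockdown. All 5 stayed within 0.05 of scramble; HNRNPC (99 bases) had 0.03 to 0.07 in the knockdowns and 0.05 in scramble. Of 18 introns in metabolism and mitochondrial genes, 2 were lower in PRMT1, 4 in PRMT3 and 1 in each of the other 4 knockdowns, and 1 was higher, in PRMT4. The 4 include ACAA1 and GALT, the galactose-1-phosphate uridylyltransferase (0.66 in PRMT3 knockdown against 0.80 in scramble). ACAA1, for which scramble stood apart, gave 1 of the lower calls in each of the 6 knockdowns.

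Of 9 introns in DNA repair and cell cycle genes, 2 were higher in PRMT1, 2 in PRMT3 and 1 each in PRMT4, PRMT5 and PRMT7 knockdown, and none was lower in any; CDC16, a subunit of the anaphase-promoting complex, had 0.53 to 0.68 in the knockdowns and 0.55 in scramble. Of 16 in transcription genes, 2 were lower in PRMT1, 2 in PRMT3, 3 in PRMT5, 3 in PRMT6 and 2 in PRMT7 knockdown, and 1 was higher in PRMT3, 1 in PRMT4 and 2 in PRMT7. ZNF598 stands on this list by its zinc finger name, although it is a ubiquitin ligase. Its overlapping introns of 134 and 152 bases gave the 2 lower calls in PRMT1, PRMT3 and PRMT7 knockdown. They also gave 2 of the 3 in PRMT5 and in PRMT6 knockdown. Of 13 in chromatin genes, 1 was higher in PRMT1, 1 in PRMT3, 2 in PRMT4 and 1 in PRMT6 knockdown, and 1 was lower, HMGN2 in PRMT5. HMGN2 also gave the higher call in PRMT1, PRMT3, PRMT4 and PRMT6 knockdown, with SETD4 as the other in PRMT4. Of 16 in ubiquitin and protein folding genes, 2 were lower in PRMT7 and 1 each in PRMT3 and PRMT5 knockdown, and none was higher. Of 8 in kinase and signalling genes, 2 were higher in PRMT4 and 1 each in PRMT1, PRMT3, PRMT5 and PRMT6 knockdown, and none was lower. PTPMT1, for which scramble was the lowest column, gave the call in PRMT1, PRMT5 and PRMT6 and 1 of the 2 in PRMT4. Among 4 in core spliceosome and helicase genes only DDX11, a helicase of sister chromatid cohesion, differed, with 0.27 in PRMT4 and 0.23 in PRMT6 knockdown against 0.40 in scramble. For DDX11 the authors' deposited table gave -0.111 in PRMT6 knockdown but 0.047 in PRMT4, the opposite direction. Among 3 in SR protein genes only SRSF1 differed, higher in PRMT3 and PRMT5 knockdown. PRMT5 itself holds a short intron (chromosome 14, 23389941 to 23390048), at 0.97 to 0.99 in the knockdowns and 0.97 in scramble.

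Of the differing introns, the higher ones in PRMT3 and PRMT5 knockdown had less GC than the lower ones. The median GC content was 51.3% for 19 higher and 61.0% for 34 lower introns in PRMT3 knockdown, and 50.0% for 9 higher and 63.1% for 33 lower introns in PRMT5 knockdown. Over all 301 short introns with a sequence it was 59.3%. In PRMT1 knockdown the medians were 60.5% for 9 higher and 62.6% for 16 lower introns, and in PRMT7 knockdown 58.3% for 7 higher and 59.5% for 24 lower. PRMT4 knockdown had 54.6% for 10 higher and 59.2% for 26 lower introns. PRMT6 knockdown stood the other way, with 67.4% for the 4 higher introns that had a sequence and 59.1% for 20 lower ones. Length did not separate them in PRMT3 knockdown, with medians of 113 bases for the higher and 115.5 for the lower introns.

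Short introns held more GC than longer ones. Median GC content was 59.3% (quartiles 51.1% and 66.7%) in 301 short introns, against 52.0% (41.0% and 59.6%) in 700 longer ones. GT at the start and AG at the end were found in 281 short introns (93.4%), against 670 longer ones (95.7%). GTAAGT or GTGAGT at the first 6 bases was found in 54 (17.9%), against 142 longer ones (20.3%), and the median pyrimidine content of the 20 bases before the last 3 was 75.0% in both. The 20 short introns without GT and AG ends had a median scramble PSI of 0.965, against 0.36 for the 281 with them, and 18 of the 20 stood above 0.8. An example is an annotated intron of 54 bases in MAGED2, a MAGE family gene on the X chromosome (GRCh38 chrX:54809818-54809871, plus strand), which begins with GC. Here capitals mark the first 2 and last 2 bases.
MAGED2: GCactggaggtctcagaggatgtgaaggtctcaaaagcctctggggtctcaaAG

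The MAGED2 intron was retained at 0.99 to 1 in the 6 knockdowns and 1 in scramble. Exceptions with other ends and low retention were SENP3 (38 bases), at 0.01 to 0.03 in the knockdowns and 0.02 in scramble, and a CNBP intron of 165 bases, at 0.06 to 0.20 in the knockdowns and 0.16 in scramble.

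**Figure D4:**
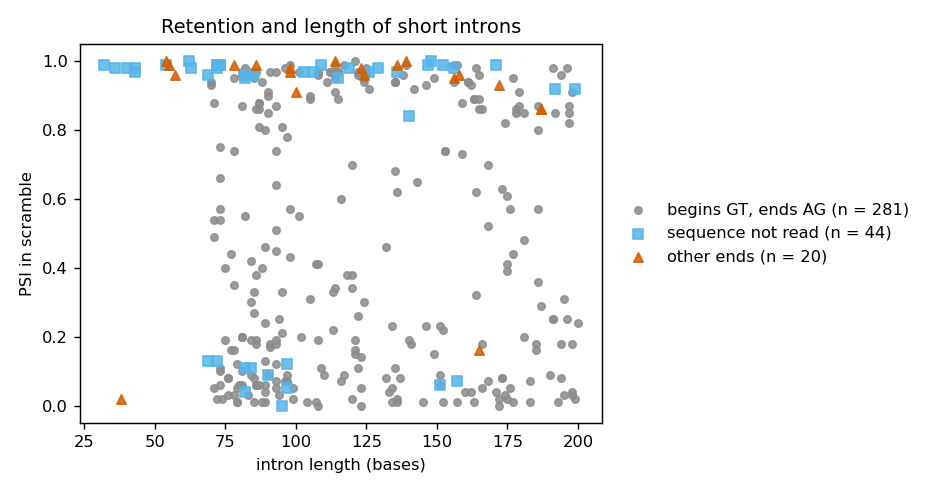
PSI in scramble (y axis) against intron length in bases (x axis) for the 345 short retained introns, by the ends of the sequence: 281 that begin with GT and end with AG, 44 whose sequence was not read, and 20 with other ends. Introns of up to 60 bases sit near 1 apart from SENP3, and above 60 bases the values fill the whole scale.

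Retention did not follow length in a graded way. The 10 introns of up to 60 bases had a median scramble PSI of 0.98, 9 of the 10 stood above 0.8, and none differed in any knockdown. Only 4 of the 10 had a sequence, and none of the 4 had GT and AG ends. Length and ends were thus not separated in these introns. The shortest were ACSS1 (32 bases, 0.99 to 1 in the knockdowns and 0.99 in scramble), DIAPH1 (36 bases, 0.95 to 0.99 and 0.98), SENP3 and SDC2 (40 bases, 0.98 to 0.99 and 0.98). Medians in scramble were 0.34 for 98 introns above 60 and up to 90 bases, 0.53 for 82 above 90 and up to 120, 0.735 for 74 above 120 and up to 160, and 0.48 for the 81 above 160. Spearman's rho of length with scramble PSI was -0.049 over 345 introns and 0.01 over the 335 above 60 bases, which share the library and are not independent replicates. At the low end of retention stood EEF1A1, the elongation factor that brings tRNA to the ribosome, at 0 in all 7 columns, and at the high end RNPS1, a splicing activator of the exon junction complex, at 1 in all 7.

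Position in the transcript went with retention. By GENCODE 29, 186 short introns lay between coding exons, 37 in the 5′ UTR, 31 in the 3′ UTR and 40 in genes or transcripts without a coding frame. Median scramble PSI was 0.195 between coding exons, against 0.89 in the 5′ UTR, 0.86 in the 3′ UTR and 0.94 without a coding transcript. Of the 186 coding introns, 16 (PRMT1), 31 (PRMT3), 19 (PRMT4), 27 (PRMT5), 18 (PRMT6) and 16 (PRMT7) differed. The numbers were 3, 7, 4, 6, 3 and 4 of the 37 in the 5′ UTR, 1, 4, 4, 2, 1 and 4 of the 31 in the 3′ UTR, and 2, 7, 7, 4, 2 and 5 of the 40 without a coding transcript. Among all events 7.4% (PRMT1), 10.5% (PRMT3), 7.47% (PRMT4), 8.27% (PRMT5), 6.84% (PRMT6) and 6.34% (PRMT7) differed.

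Between coding exons, retention went with the reading frame. Of 158 short coding introns with a known frame and GT and AG ends, 94 (59.5%) held an in-frame stop, against 372 of 399 longer ones (93.2%). A further 33 short introns (20.9%) had no stop and a length that is a multiple of 3, against 21 longer ones (5.26%), so that retention leaves the downstream frame as it was. Those 33 had a median scramble PSI of 0.82, with 17 above 0.8, against 0.18 for the 94 with a stop, of which 9 stood above 0.8. The other 31, with no stop but a shifted frame, had 0.15. The longer introns without a stop and of a length that is a multiple of 3 had 0.87, against 0.19 with a stop. These classes were formed after the values were seen.

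ATRX and BAZ2A, both chromatin remodelling genes, show such open introns, and were chosen after their values were seen. ATRX lies at GRCh38 chrX:77683452-77683538 (minus strand) and BAZ2A at chr12:56615129-56615218 (minus strand). Capitals mark the first 6 and last 3 bases.
ATRX: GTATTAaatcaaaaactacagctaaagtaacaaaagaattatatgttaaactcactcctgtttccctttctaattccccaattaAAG
BAZ2A: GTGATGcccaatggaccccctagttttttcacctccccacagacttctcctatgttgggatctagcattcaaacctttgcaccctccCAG

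The ATRX intron (87 bases, 28.7% GC) had 0.92 (PRMT1), 0.92 (PRMT3), 0.86 (PRMT4), 0.91 (PRMT5), 0.92 (PRMT6) and 0.90 (PRMT7), against 0.88 in scramble. BAZ2A (90 bases) had 0.85, 0.92, 0.94, 0.91, 0.89 and 0.91, against 0.90. NR3C1, the glucocorticoid receptor (78 bases), had 0.96 to 0.98 in the knockdowns and 0.95 in scramble. None of these differed in any knockdown. Of the 94 introns with a stop, 11 (PRMT1), 22 (PRMT3), 8 (PRMT4), 18 (PRMT5), 10 (PRMT6) and 8 (PRMT7) differed. Of the 33 open ones, 2 differed in each knockdown other than PRMT5, with 1, and PRMT7, with 3. The gap between both classes was not tested, and they also differ in scramble PSI.

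**Figure D5:**
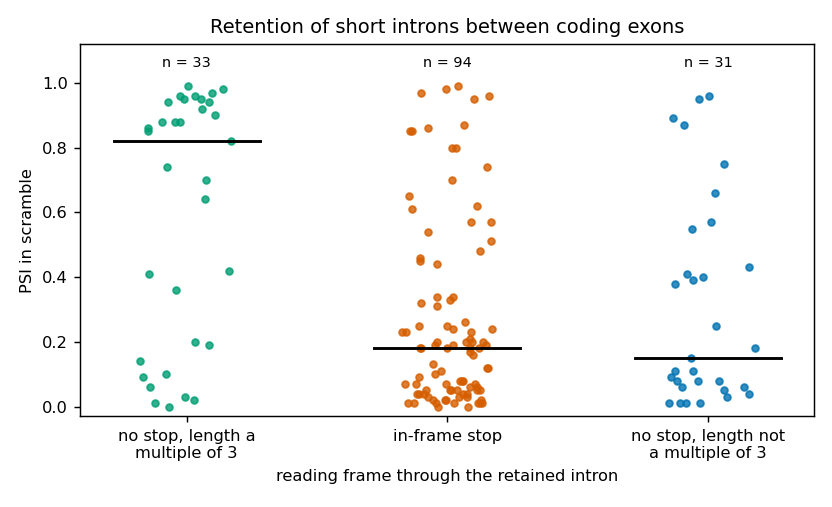
PSI in scramble (y axis) of 158 short retained introns between coding exons, by the reading frame through the retained intron; each dot is an intron and each line a median. Introns that keep the frame open have a median of 0.82, against 0.18 for those with an in-frame stop and 0.15 for those without a stop but with a shifted frame.

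The authors' deposited table of rMATS differences held 232 of the 345 events, matched by the intron's ends. Of the short introns that differed by MISO and were matched, the sign was the same in 16 of 18 (PRMT1), 37 of 42 (PRMT3), 20 of 26 (PRMT4), 26 of 29 (PRMT5), 17 of 20 (PRMT6) and 20 of 23 (PRMT7). The size was smaller for most: 3, 14, 5, 5, 4 and 6 of them reached 0.1 in the authors' deposited table in PRMT1, PRMT3, PRMT4, PRMT5, PRMT6 and PRMT7 knockdown. Counted over all matched short introns, the authors' deposited table put 10 of 226 past 0.1 for PRMT1 (against 13.5% of all its events), 19 of 227 for PRMT3 (15.7%), 12 of 227 for PRMT4 (14.4%), 15 of 228 for PRMT5 (14.7%), 10 of 226 for PRMT6 (15.8%) and 14 of 228 for PRMT7 (13.4%). PRMT3 had the most there too, but the shares lie below those of all events in that table, which lists many more events than the MISO table.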

How the data were processed

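The labels' protocols describe stranded poly(A) RNA-seq (TruSeq, HiSeq X10), and the submitters' processing notes name cutadapt 1.18, HISAT and GRCh37. No version of HISAT, MISO or rMATS is given in the sources used. The authors deposited MISO PSI values as a fraction from 0 to 1 with 2 decimals, and rMATS differences in PSI, a signed score with 3 decimals. Neither table gives read numbers, so depth is unknown and no interval on a PSI is given. A MISO line without content was skipped.

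Events of the retained-intron type with all 7 values and an intron of at most 200 bases were taken, and knockdowns were set against scramble and, as an alternative, against the mean of the 5 others. The planned limma fit and the leaving out of single libraries need a value per library and were not run. The threshold of 0.1 PSI stands in for the test. The sign of the rMATS differences is not stated. In 807 longer introns, of which 513 to 525 per knockdown were matched, the correlation of the deposited score with knockdown minus scramble by MISO was -0.608 to -0.355, so the sign was turned. Over short introns MISO and rMATS differed by a root mean square of 0.0471 to 0.0621 PSI.

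Intron sequences came from GENCODE 29 (GRCh38), matched by gene, strand and lengths, with no conversion of coordinates: 309 introns matched, 253 of them with both flanking exons, and 301 had a sequence. The members and the 12 gene lists were chosen with earlier results of these data known. Named genes were the 4 largest higher and 4 largest lower per knockdown, the 6 with the widest range, the 4 highest, 4 lowest and 4 shortest, up to 4 per list, genes with several introns, and introns whose events differ most; the text gives a part of these, and further genes are marked as chosen after their values were seen. NR3C1, RNPS1, CNBP, HNRNPH1 and the PRMT5 intron were named as examples or for the length bound. Splits at 60 bases, by GT and AG ends and by reading frame were formed after the values were seen. Alternatives were a difference of 0.2, a mean PSI between 0.05 and 0.95, fewer missing values, 1 event per intron, introns up to 150 bases, another reference and rMATS. The work used scipy 1.17.1, numpy 2.4.6, matplotlib 3.10.9 and pandas 2.3.3 in Python 3.11.15. The calling of differences by size was tested on simulated PSI values, and the matching to rMATS and to sequences was not.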

Additional observations from a re-analysis of the deposited data

Results flagged for a closer look

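A difference in opposite directions between knockdowns, at least 0.1 above scramble in one and at least 0.1 below it in another, was found for 10 of the 345 events (2.9%), against 3.1% of longer introns and 2.11% of all events. The difference between the knockdowns was not tested. Among these 10 the widest ranges over the 6 knockdowns were 0.36 PSI for a SNHG11 event (higher in PRMT3, lower in PRMT4) and 0.35 for the other event over that intron (higher in PRMT3, lower in PRMT4 and PRMT6), 0.36 for the YDJC intron of 135 bases (higher in PRMT5, lower in PRMT3, PRMT4 and PRMT7) and 0.35 for SPSB3 (higher in PRMT4, lower in PRMT3 and PRMT5). HMGN2 spanned 0.34 (higher in PRMT1, PRMT3, PRMT4 and PRMT6, lower in PRMT5), DXO 0.34 (higher in PRMT3, lower in PRMT1 and PRMT6) and EDC4 0.32 (higher in PRMT7, lower in PRMT5). MFSD10 spanned 0.3 (higher in PRMT1, lower in PRMT3 and PRMT5), GALT 0.24 (higher in PRMT4, lower in PRMT1 and PRMT3) and the GRINA intron of 166 bases 0.24 (higher in PRMT3, lower in PRMT1 and PRMT4). The authors' deposited table did not show opposite directions for GALT: it was lower in all 6 knockdowns, between -0.232 and -0.108, and at -0.193 in PRMT4. It also gave lower values for the YDJC intron of 135 bases (-0.287 to -0.073) and for HMGN2 (-0.014 to -0.005) in all 6, and 0.039 (PRMT5), 0.010 (PRMT4) and -0.027 (PRMT3) for SPSB3. In the authors' deposited table GRINA stood at 0.039 (PRMT3), -0.013 (PRMT1) and -0.025 (PRMT4), and MFSD10 was not matched.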

How the results depend on the processing

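No paired analysis was possible because the table holds 1 column per target, and leaving out single libraries was not run for that reason. A difference of at least 0.2 was met by 3 (PRMT1), 13 (PRMT3), 6 (PRMT4), 6 (PRMT5), 2 (PRMT6) and 4 (PRMT7) short introns, with all of them (100%) lower in PRMT5 and PRMT6. With the mean of the other 5 knockdowns as the reference the count was 15 (PRMT1), 14 (PRMT4), 23 (PRMT5) and 10 (PRMT7). Introns of up to 150 bases gave 16 (PRMT1), 31 (PRMT3), 15 (PRMT6) and 15 (PRMT7). With a mean PSI between 0.05 and 0.95 the median difference in PRMT6 was -0.02. The authors' deposited rMATS table gave 10 (PRMT1), 19 (PRMT3), 12 (PRMT4), 15 (PRMT5), 10 (PRMT6) and 14 (PRMT7), with 92.9% lower in PRMT7; fewer introns were matched there. Against the other knockdowns ACAA1 turned to 0.002 (PRMT1), 0.014 (PRMT4), 0.038 (PRMT5) and 0.002 (PRMT7). Among the named pairs of intron and knockdown, the sign turned in the authors' deposited rMATS table for HMGN2 in PRMT1 (-0.006), PRMT3 (-0.005), PRMT4 (-0.008) and PRMT6 (-0.014), ZFYVE19 in PRMT4 (0.010), SPSB3 in PRMT5 (0.039), the YDJC intron of 135 bases in PRMT5 (-0.112) and MUS81 in PRMT1 (-0.005). Of the other named differences, 14 stayed past 0.1 in the rMATS table and 34 kept only the direction; against the other knockdowns these numbers were 40 and 26. The cause of these changes was not tested. Keeping 1 event per intron, or introns with fewer values, left each count within 1.5 times. Depth is unknown and sets no limit that can be given.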

Other observations

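Of the 26 introns measured by more than 1 event, 17 had scramble PSI values within 0.03 of each other. The events of SGSM3 differed most in scramble (0.42 and 0.19), followed by FASTK, a protein of the mitochondrial RNA-binding FAST kinase family (0.57 and 0.43), and CAMKV, a kinase-like protein (0.74 and 0.64). For SGSM3 the spread of 0.23 between events in 1 column is larger than its difference of -0.22 between PRMT1 knockdown and scramble.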
